A study of Mus musculus with 20 samples.

Results

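The genes described here encode the proteins of the cytosolic and the mitochondrial ribosome in mouse liver. A gene was taken as cytosolic where its symbol begins with Rpl or Rps and a digit, S6 kinases and pseudogenes aside, and as mitochondrial where it begins with Mrpl or Mrps and a digit. Only probe sets that name a single gene were used. Of the 45037 probe sets on the array, 258 met the rule, and they measured 123 of the 18193 genes with a probe set of their own: 47 cytosolic genes on 102 probe sets (24 of the large and 23 of the small subunit by symbol) and 76 mitochondrial genes on 156 probe sets (47 and 29). Another 30 cytosolic and 2 mitochondrial symbols (Mrpl30 and Mrpl53) occur only on probe sets that name several genes and are not members. Of all 109 probe sets that name a cytosolic ribosomal protein gene among several genes, 2 rose and 0 fell in WT livers (limma). The shares of all probe sets were 7.67% and 6.72%, and none of the 109 was called in PXR-KO livers. At an unadjusted p under 0.05, 13 of the 109 were higher and 3 of the 109 lower in WT livers, beside 13.8% and 13.7% of all probe sets. In PXR-KO livers 15 of the 109 were higher and 0 lower, beside 10.8% and 9.25%. Rps19bp1, a protein that binds the small-subunit protein Rps19, met the symbol rule without being a subunit.

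Livers came from 9-week-old male mice in 4 groups of 5. Wild type (WT) mice were C57BL/6 with both copies of the pregnane X receptor PXR (PXR+/+), and PXR-KO livers (PXR-/-) were from C57BL/6NTac by their source, although their strain label reads C57BL/6, so that genotype and substrain cannot be told apart. In each genotype 1 group received CMP013, a BACE1 inhibitor, at 150 mg/kg by gavage every 24 h, and the other received the dosing vehicle, an acidified aqueous mixture of hydroxypropyl methylcellulose and polysorbate, and livers were taken at 96 h after a fast of 3 to 4 h. Each value, from an Affymetrix Mouse430_2 array, is the log2 ratio of an animal to the average vehicle animal of its own genotype (5 per genotype), so that the vehicle animals lie around 0 by construction. The ratios hold no level. The knockout under vehicle, the absence of PXR itself and the presence of liver-defining markers were therefore not analysed here, and no gene is ranked by abundance. A log2 fold change is CMP013 minus vehicle, and a gene is said to rise or fall where its adjusted p is under 0.05 (limma, Benjamini-Hochberg over 45037 probe sets). In this bulk tissue fewer cells of a type and less RNA per cell cannot be told apart.

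The cytosolic ribosome translates the mRNAs of the nuclear genome, and its proteins are made in the cytosol and join the rRNA in the nucleolus. The mitochondrial ribosome translates the few mRNAs of mitochondrial DNA, all of which code for subunits of the respiratory chain and ATP synthase. Its proteins are nevertheless encoded in the nucleus, made in the cytosol and imported. PXR is a nuclear receptor that senses drugs and bile acids and induces hepatic drug metabolism, and its activation in rodents is known to be accompanied by liver growth.

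The start sites show how the members differ in sequence before any value is considered. Many cytosolic ribosomal protein mRNAs begin with a TOP motif, a C followed by a run of pyrimidines, through which mTORC1 controls their translation. The following stretches hold 15 bases before and 15 from the annotated start, with the first 5 transcribed bases in capitals (RefSeq, GRCm38.p6). They comprise 3 cytosolic genes with this form, chosen for the cytosolic results below, and 3 mitochondrial genes from the 4 with the smallest adjusted p for the difference between the genotypes.
Rpl35 (chr2:39005117-39005146, minus strand): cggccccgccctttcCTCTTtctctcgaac
Rpl38 (chr11:114668565-114668594, plus strand): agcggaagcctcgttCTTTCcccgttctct
Rps6 (chr4:86857353-86857382, minus strand): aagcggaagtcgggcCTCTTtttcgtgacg
Mrpl10 (chr11:97041567-97041596, plus strand): ctccgcgcagcgcgcATGGGaacttcctgt
Mrps22 (chr9:98601665-98601694, minus strand): cgagccggaagttgcTCTATcgattccggc
Mrpl42 (chr10:95501935-95501964, minus strand): atagcgcgcgctggaCGGCGcctttaggac

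A start of C followed by 4 pyrimidines was annotated in 7 of the 41 cytosolic genes with a promoter window (17.1%), in 0 of the 67 mitochondrial genes and in 3.01% of all 27025 genes with one. Annotated starts are single bases and TOP starts are used with some scatter, so the count is of these letters only. Windows of 250 bases before to 50 after the start were also searched on both strands for 5 motifs. CCGGAAGT, the ETS-family form also bound by GABP (NRF-2), was in 12 of 67 mitochondrial (17.9%) and 9 of 41 cytosolic genes (22%) against 4.31% of all genes. AAGATGGC, the YY1 form, was in 17.9% and 9.76% against 3.19%, and GCATGCGC, the NRF-1 form, in 11.9% and 4.88% against 3.05%. The E-box CACGTG, known as a site of Myc and USF, was in 7.46% and 9.76% against 8.09%, and TATAAA in 7.46% and 12.2% against 15.7%. Both ribosomes thus held the ETS and YY1 forms in a larger share of genes than all promoters did, and among the members only cytosolic genes held the TOP form. A pair of mitochondrial promoters from genes that rose in WT livers show these forms in capitals.
Mrpl10, GCATGCGC (chr11:97041422-97041481, plus strand): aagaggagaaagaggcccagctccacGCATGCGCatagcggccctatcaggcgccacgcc
Mrps22, CCGGAAGT (chr9:98601680-98601739, minus strand): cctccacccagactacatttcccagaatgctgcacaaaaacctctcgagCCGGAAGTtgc

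Across the series, the medians of the 20 arrays over all probe sets lay between -0.027 and 0.012. On the second principal component of all probe sets (14.7% of the variance) 4 vehicle animals (WT replicates 3 and 4, PXR-KO replicates 2 and 4) scored 49.2 to 73.3, above the other 16 animals, and the main counts are also given without these 4. RNA integrity numbers were 9.3 to 10 in WT and 8.7 to 9.6 in PXR-KO livers. Ribosomal protein probe sets were among the steadier ones: the median SD within a group was 0.076 to 0.10 over mitochondrial genes and 0.089 to 0.11 over cytosolic genes, against 0.25 to 0.29 over all probe sets, and no test here adjusts a share of calls for that difference.

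Mitochondrial ribosomal protein genes rose in treated WT livers. Of the 76 genes, 23 rose and 1 (Mrpl2) fell, and the median log2 fold change was 0.18 against -0.010 over all probe sets. Called higher were thus 30.3% of these genes, against 7.67% of all probe sets. Since each member was measured by 1 probe set, the nearer background is that of all 18193 genes measured likewise, of which 9.72% rose and 7.98% fell, 17.7% in either direction (14.4% of probe sets). At an unadjusted p under 0.05, 35 of the 76 genes were higher and 2 of the 76 lower, beside 27.6% of probe sets in either direction. In all, 60 of the 76 lay above 0, or 78.9% against 48.7% of all probe sets and 49.9% of all genes. For 32 genes every treated animal exceeded every vehicle animal, which was true of 7.78% of all probe sets and 10.2% of all genes, and for 2 genes every treated animal was lower (6.96% and 9.01%). The changes were modest in size: the 23 genes rose by 0.31 to 0.73 log2 units, with a median of 0.41.

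**Figure D1:**
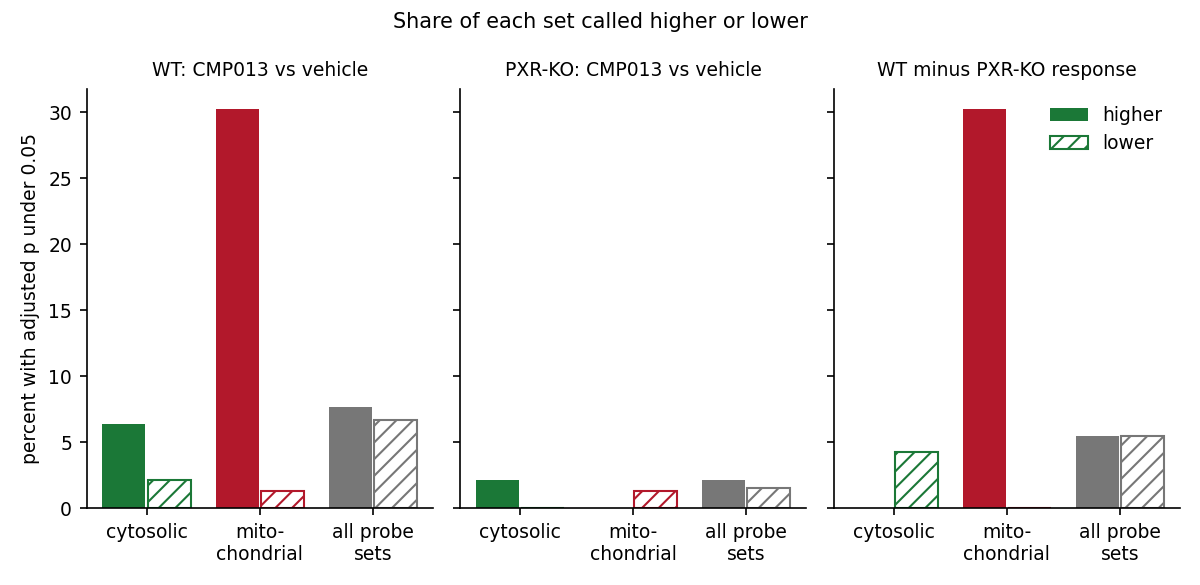
Percent of genes of each ribosome, and of all probe sets, with an adjusted p under 0.05 (limma), for CMP013 against vehicle in WT and PXR-KO livers and for the response in WT minus that in PXR-KO; filled bars are higher and hatched bars lower. Mitochondrial genes reach 30.3% higher in WT livers and in the difference, and no other filled bar passes 7.67%.

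Mrpl16, a protein of the large subunit of bacterial descent, had the smallest adjusted p of the mitochondrial genes in WT livers. Its treated animals measured 0.59, 0.59, 0.52, 0.64 and 0.66, and its vehicle animals -0.11 to 0.11. The groups lay far apart, with a log2 fold change of 0.60 ± 0.08 (SE, n = 5 per group), which is 1.52-fold, and an adjusted p of 0.000874 (limma).

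Mrpl10 forms the base of the flexible stalk to which translation factors bind. It measured 0.49, 0.58, 0.47, 0.58 and 0.55 in treated WT animals and -0.05 to 0.07 in vehicle animals. All treated values exceeded all vehicle values, and the log2 fold change was 0.54 ± 0.07 (adjusted p = 0.00105, limma). Mrpl11, next to the stalk base, rose by 0.54 ± 0.09 (adjusted p = 0.00279) on the probe set used, and Mrpl12, the stalk protein itself, rose by 0.40 ± 0.12 near the threshold (adjusted p = 0.0481), with treated values of 0.55, 0.69, 0.20, 0.13 and 0.45, a call lost in 8 of the 10 fits without 1 animal (adjusted p 0.0287 to 0.107).

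Among proteins that mitochondrial ribosomes have gained in evolution and that bacteria lack, Mrpl54 had the highest log2 fold change of any member of its ribosome. Its treated WT animals measured 0.73, 0.67, 0.50, 0.56 and 0.82 against -0.23 to 0.15 under vehicle, a rise of 0.73 ± 0.11 or 1.65-fold (adjusted p = 0.00205, limma). Mrpl57 measured 0.58, 0.52, 0.47, 0.44 and 0.71 against -0.08 to 0.05 (0.54 ± 0.08, adjusted p = 0.00186). Mrps22, a small-subunit protein whose loss in people causes a respiratory chain deficiency, measured 0.52, 0.39, 0.44, 0.42 and 0.33 against -0.05 to 0.10 (0.42 ± 0.08, adjusted p = 0.00498). None of the 3 genes had overlapping groups. Mrpl42 rose by 0.38 ± 0.07 (adjusted p = 0.00756).

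**Figure D2:**
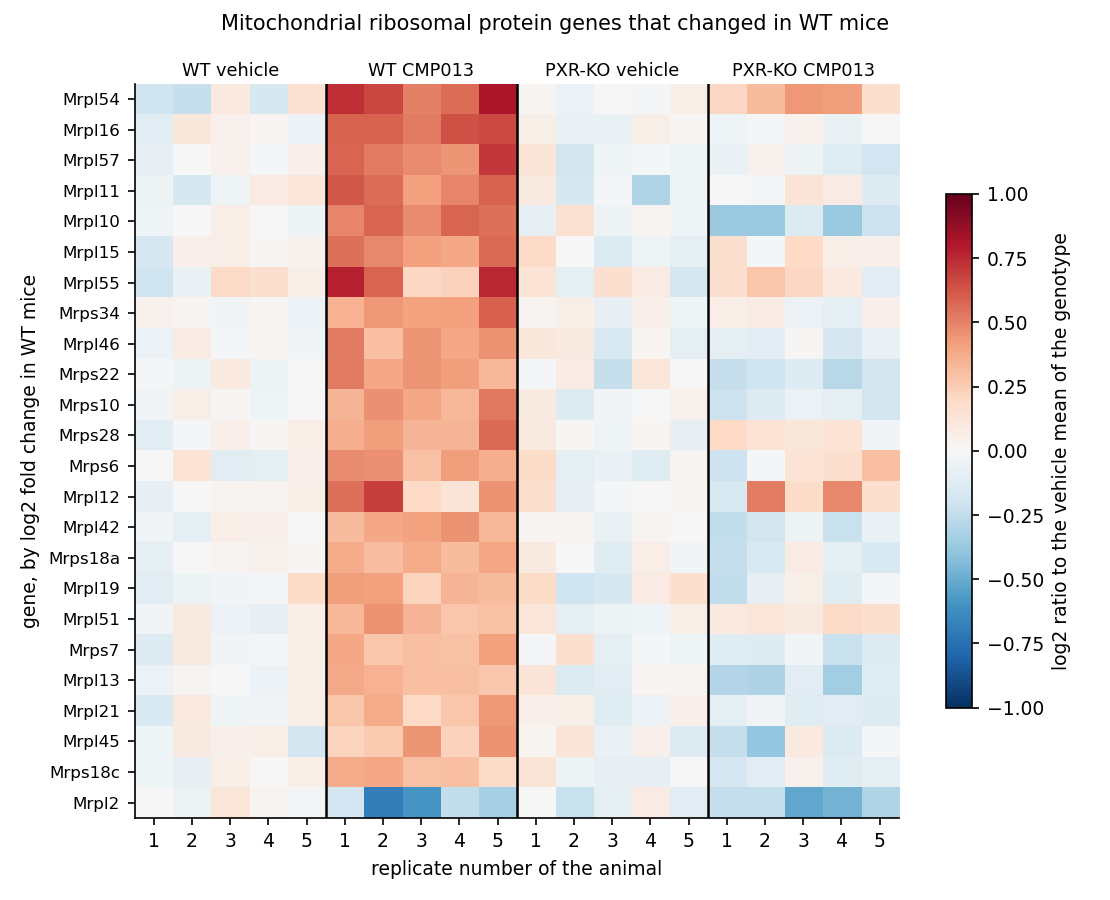
Log2 ratio to the vehicle mean of the same genotype (colour) for the 24 mitochondrial ribosomal protein genes called in WT livers (rows, ordered by log2 fold change in WT livers) in each of the 20 animals (columns, grouped). The 5 treated WT columns are above 0 for 23 genes, and the treated PXR-KO columns are near or below 0 for most of them, with Mrpl54 as an exception.

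The rise was present in both subunits, in 15 of 47 genes with an Mrpl symbol (median log2 fold change 0.23) and 8 of 29 with an Mrps symbol (median 0.13). The symbols do not follow the subunits throughout: of the 3 paralogues related to the bacterial S18 protein, Mrps18a sits in the large and Mrps18b and Mrps18c in the small subunit. Mrps18a measured 0.37, 0.31, 0.37, 0.32 and 0.39 in treated WT animals (0.35 ± 0.07, adjusted p = 0.0088) and Mrps18c rose by 0.31 ± 0.08 (adjusted p = 0.0228, limma), while Mrps18b, at 0.27 ± 0.09, did not pass (adjusted p = 0.0612). The other genes that rose were Mrpl13, Mrpl15, Mrpl19, Mrpl21, Mrpl45, Mrpl46, Mrpl51, Mrpl55, Mrps6, Mrps7, Mrps10, Mrps28 and Mrps34, by 0.32 (Mrpl45) to 0.48 (Mrpl15). The 52 genes that were not called lay between -0.25 and 0.30, and 37 of them were above 0.

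Mrpl2, at the catalytic centre of the large subunit, was the 1 mitochondrial gene that fell in WT livers. Its treated animals measured -0.19, -0.69, -0.59, -0.25 and -0.33 and its vehicle animals -0.05 to 0.12, without overlap (-0.43 ± 0.11, adjusted p = 0.0305, limma), and the call was lost in 6 of the 10 fits without 1 animal (adjusted p 0.0247 to 0.0735). In PXR-KO livers it measured -0.29 ± 0.10 (adjusted p = 0.141), and the responses of the genotypes differed by -0.14 ± 0.14 (adjusted p = 0.583). Mrpl23, at the exit of the peptide tunnel, had the lowest difference between the genotypes among mitochondrial genes, -0.35 ± 0.12, which did not pass (adjusted p = 0.0716).

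Several probe sets measured 42 of the 76 mitochondrial genes. Of the 23 genes that rose, 11 had another probe set, 25 in all, of which 17 were above 0 in WT livers and 12 rose, while 1 fell. That 1 belongs to Mrpl11, with log2 fold changes of 0.54, 0.33 and 0.17 on 3 probe sets and -0.60 ± 0.16 on the fourth (adjusted p = 0.0317, limma), so the direction of Mrpl11 depends on the probe set. The second probe set of Mrpl54 gave 0.84 ± 0.14 (adjusted p = 0.00323). Over all 156 mitochondrial probe sets 38 rose and 4 fell, with a median of 0.14.

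In PXR-KO livers no mitochondrial ribosomal protein gene rose. Mrpl44 fell, the remaining 75 did not pass (limma), and the median was -0.071 against 0.008 over all probe sets, with 27 of 76 genes above 0 (35.5% against 51.2% of probe sets and 47.6% of genes). At an unadjusted p under 0.05 there were 3 genes higher and 10 lower. The background in this genotype was 2.12% of probe sets higher and 1.54% lower (3.65% in all, and 20.1% at an unadjusted p under 0.05), and 2.5% and 2.14% of genes (4.64% in all), so few calls were to be had in either set. Every treated animal lay below every vehicle animal for 9 genes (11.8% against 3.5% of probe sets and 5.11% of genes) and above for 3 (3.95% against 4.07% and 4.79%).

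Mrpl44 carries a domain related to ribonuclease III, and its mutation in people causes a cardiomyopathy. It measured -0.38, -0.64, -0.42, -0.24 and -0.35 in treated PXR-KO animals and -0.09 to 0.05 under vehicle, with no overlap (-0.40 ± 0.09, adjusted p = 0.0429). On the WT side the same probe set measured -0.05 ± 0.08 (adjusted p = 0.753). Of its other 3 probe sets, a pair fell in PXR-KO livers (-0.54 ± 0.10, adjusted p = 0.0207, and -0.37 ± 0.08, adjusted p = 0.04) and the third gave -0.27 ± 0.08 (adjusted p = 0.0879). The first of that pair fell in WT livers as well (-0.42 ± 0.09, adjusted p = 0.0113), so the difference between the genotypes at Mrpl44 (0.35 ± 0.11, adjusted p = 0.0401) also depends on the probe set, and it was lost in 15 of the 20 fits without 1 animal (adjusted p 0.0274 to 0.0721). The call on the probe set used was lost without any 1 of the 10 animals (adjusted p 0.0639 to 0.0946).

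The responses of the 2 genotypes differed at 23 mitochondrial genes, each higher in WT than in PXR-KO livers, and at 0 in the other direction (limma, interaction on 20 arrays). That is 30.3% against 5.47% of all probe sets higher and 5.49% lower, and 7.39% and 6.22% of all genes (13.6% in all). At an unadjusted p under 0.05 the counts were 37 of the 76 genes higher and 2 of the 76 lower, beside 11.7% and 13.4% of probe sets. The median difference was 0.23 against -0.018 over all probe sets, and 61 of 76 genes were above 0 (80.3% against 48.4% of probe sets and 51.4% of genes). The 23 comprised 16 of 47 genes with an Mrpl and 7 of 29 with an Mrps symbol. Of 26 other probe sets of these genes 16 were above 0, 4 were called higher and 1, of Mrpl11, lower (-0.92, adjusted p = 0.00489). A probe set of Mrps21 that was not the one used was also called lower (-0.68, adjusted p = 0.0161). Of the 23 genes that rose in WT livers, 18 were among these, and 5 were not: Mrpl12, Mrpl51, Mrpl55, Mrps6 and Mrps28. The other 5 with a difference were Mrpl22, Mrpl36, Mrpl37, Mrpl44 and Mrps11. Among all 76 genes, 38 lay above 0 in WT and below 0 in PXR-KO livers, 22 above in both, 11 below in both and 5 the other way.

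Mrpl10 had the largest difference among the mitochondrial genes. Its treated PXR-KO animals measured -0.37, -0.37, -0.14, -0.37 and -0.21 and their vehicle animals -0.08 to 0.15, a log2 fold change of -0.30 ± 0.09 that did not pass on its own (adjusted p = 0.0938). The difference of the responses, 0.83 ± 0.10, did (adjusted p = 2.82e-05, limma). In these 10 animals the treated values were all below the vehicle values, whereas in WT livers they were all above.

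Mrpl16 and Mrpl57 lay near 0 in PXR-KO livers. Mrpl16 measured -0.04, -0.02, 0.04, -0.07 and 0.00 in treated animals, within the vehicle range, and its difference was 0.62 ± 0.09 (adjusted p = 0.000205, limma). Mrpl57 had a difference of 0.59 ± 0.11 (adjusted p = 0.00118). For Mrps22 the treated PXR-KO values were -0.23, -0.20, -0.13, -0.28 and -0.18 against -0.23 to 0.12 under vehicle, overlapping, with a difference of 0.61 ± 0.10 (adjusted p = 0.000729). Differences were 0.53 ± 0.09 for Mrpl42 (adjusted p = 0.000803), 0.46 ± 0.10 for Mrps18a (adjusted p = 0.00467) and 0.38 ± 0.10 for Mrps18c (adjusted p = 0.0145). Mrpl54 was the gene with the highest PXR-KO value of the set, 0.31 ± 0.08 (adjusted p = 0.0764), and its difference of 0.42 ± 0.13 was near the threshold (adjusted p = 0.0426), lost in 14 of the 20 fits without 1 animal (adjusted p 0.0247 to 0.0806).

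**Figure D3:**
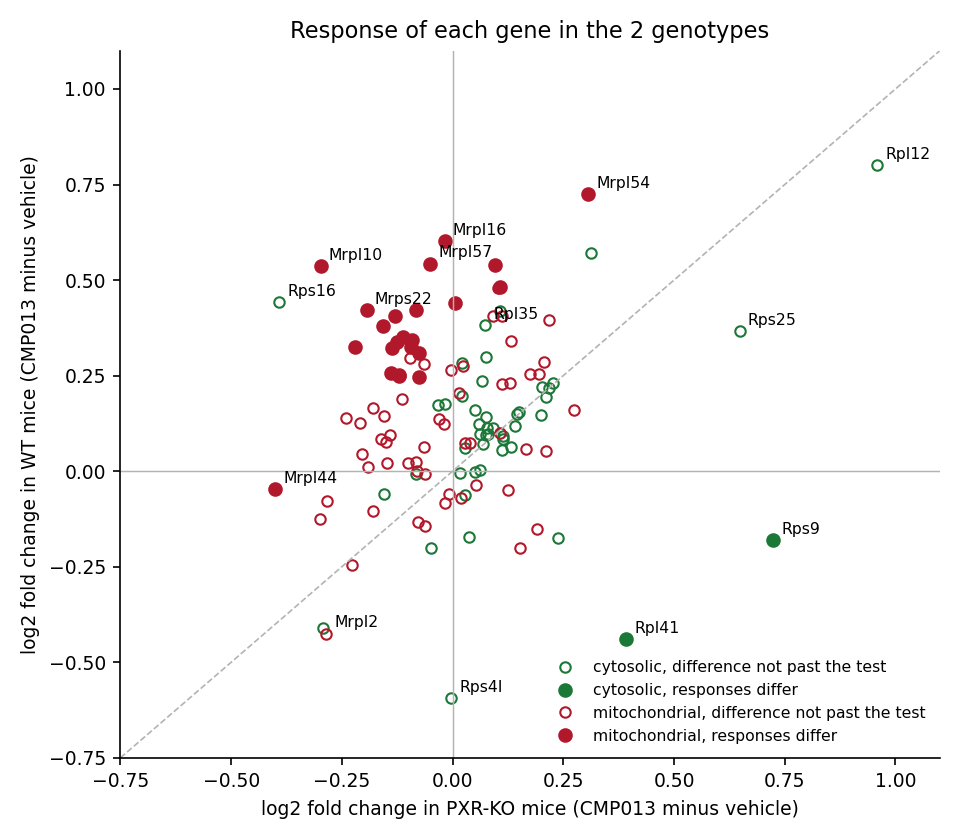
Log2 fold change of each of the 123 genes in PXR-KO livers (x axis) and WT livers (y axis), CMP013 minus vehicle; green circles are cytosolic and red circles mitochondrial genes, filled where the responses of the genotypes differ (limma, adjusted p under 0.05), and the dashed line marks equal responses. The 23 filled red circles lie above the dashed line, and the 2 filled green circles (Rps9 and Rpl41) lie below it.

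Fewer cytosolic ribosomal protein genes passed the test. In WT livers 3 of 47 rose (Rpl35, Rpl38 and Rps19bp1) and 1 fell (Rps4l), against a background of 7.67% of probe sets higher and 6.72% lower. The share called higher, 6.38%, was close to that background and below the 9.72% of all genes. In either direction 8.51% were called, against 14.4% of probe sets and 17.7% of genes. Every treated animal exceeded every vehicle animal for 10 genes, or 21.3% against 7.78% of probe sets and 10.2% of genes, and was below every vehicle animal for 0. At an unadjusted p under 0.05, 13 of the 47 genes were higher and 2 of the 47 lower in WT livers, beside 13.8% and 13.7% of probe sets. The share higher was thus above that of all probe sets and the share lower below it. In PXR-KO livers 1 rose (Rps25) and 0 fell (limma), against 2.12% and 1.54% of probe sets. Unadjusted, 7 of the 47 were higher and 0 lower at a p under 0.05, beside 10.8% and 9.25% of probe sets. The median log2 fold changes were 0.11 in WT and 0.076 in PXR-KO livers, and 35 and 39 of the 47 genes were above 0 (74.5% and 83%, against 48.7% and 51.2% of all probe sets). In contrast to the mitochondrial genes, 32 of 47 were above 0 in both genotypes, and the median difference was 0.004.

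Rpl35, which lines the exit of the peptide tunnel and has the TOP form shown above, measured 0.40, 0.43, 0.30, 0.30 and 0.48 in treated WT animals and -0.08 to 0.08 under vehicle, with no overlap (0.38 ± 0.08, adjusted p = 0.00913). In PXR-KO livers it measured 0.07 ± 0.08, and the difference of 0.31 ± 0.10 narrowly missed the threshold (adjusted p = 0.0505). Its other 5 probe sets gave 0.01 to 0.27 in WT livers and none was called. Rpl38, known in the mouse for its part in translating Hox mRNAs, rose by 0.24 ± 0.07 on its only probe set, which carries the x mark for probes shared with other sequences (adjusted p = 0.0467), a call lost without any 1 of the 10 animals. Rps19bp1 measured 0.34, 0.57, 0.37, 0.43 and 0.40 in treated WT animals, clear of the vehicle animals (0.42 ± 0.09, adjusted p = 0.00963), and 0.11 ± 0.09 in the knockout. Rps6, the S6 kinase target, gave 0.23 ± 0.09 in WT and 0.23 ± 0.09 in PXR-KO livers (adjusted p = 0.109 and 0.203).

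Rps25, which is needed for translation from certain viral internal ribosome entry sites, measured 1.02, 0.67, 0.40, 0.73 and 0.31 in treated PXR-KO animals and -0.16 to 0.10 under vehicle. The groups did not overlap (0.65 ± 0.14, adjusted p = 0.0339). In WT livers it gave 0.37 ± 0.13 (adjusted p = 0.0893), and the responses differed by -0.28 ± 0.19 (adjusted p = 0.377, limma). The PXR-KO call was lost in 8 of the 10 fits without 1 animal (adjusted p 0.0244 to 0.0926).

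Rpl12, at the stalk base of the cytosolic ribosome, had the highest log2 fold changes of its set without a call: 0.80 ± 0.28 in WT livers (adjusted p = 0.0885) and 0.96 ± 0.24 in PXR-KO livers (adjusted p = 0.0538). Its vehicle animals ranged from -0.95 to 0.33 in WT livers. Rps16 had the widest spread, with treated WT values of -1.41 to 1.67 and vehicle values of -1.48 to 1.45, and its fold changes were 0.44 ± 0.77 and, in the knockout, -0.39 ± 0.67.

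The responses differed between the genotypes at 2 cytosolic genes, both lower in WT than in PXR-KO livers. That is 4.26%, against 5.49% of probe sets and 6.22% of genes lower, and 13.6% of genes in either direction. None was higher in WT livers, against 5.47% of probe sets and 7.39% of genes. Rps9 measured -0.40, 0.16, -0.55, -0.05 and 0.01 in treated WT and 0.98, 1.08, 0.22, 0.94 and 0.42 in treated PXR-KO animals (difference -0.90 ± 0.26, adjusted p = 0.0324, limma), a call lost in 10 of the 20 fits without 1 animal (adjusted p 0.0123 to 0.0636). Rpl41 measured -0.46, -0.16, -0.41, -0.29 and -0.91 in treated WT and 0.74, 0.42, -0.04, 0.73 and 0.01 in treated PXR-KO animals (difference -0.83 ± 0.23, adjusted p = 0.0242). Other probe sets of these genes did not show the same: for Rps9 they gave differences of -0.08 and -0.31 (adjusted p = 0.649 and 0.231), and for Rpl41 -0.10, 0.12 and 0.31, of which the last was called in the opposite direction (adjusted p = 0.04).

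Paralogues of cytosolic proteins were measured side by side. Rps4l, an autosomal copy of the X-linked Rps4x, fell in WT livers, with treated values of -0.76, -0.83, -0.83, -0.12 and -0.44 and vehicle values of -0.17 to 0.18, which overlapped at 1 animal (-0.59 ± 0.15, adjusted p = 0.0265, limma), and the call was lost in 5 of the 10 fits without 1 animal (adjusted p 0.00655 to 0.0635). Rps4x gave 0.11 ± 0.07 (adjusted p = 0.365). Rpl22 and Rpl22l1, which regulate each other, gave 0.20 and 0.22 in WT livers, 0.21 and 0.22 in the knockout. Rps27 and its p53-responsive paralogue Rps27l gave -0.20 and 0.12 in WT livers, Rpl7 and Rpl7l1 0.06 and 0.14, and Rpl39 and Rpl39l 0.30 and 0.06. Rpl3l, known from striated muscle, ranged from -1.44 to 0.76 among treated WT animals. None of these but Rps4l was called. Members with roles outside translation were not called either: Rpl11, which binds Mdm2, gave 0.06 and 0.13 in WT and PXR-KO livers, Rps3 0.09 and 0.11, Rps19 0.12 and 0.14 and Rpl13a 0.22 and 0.20.

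Medians over each ribosome, taken within an animal, show the contrast without a call on any gene. In vehicle animals they lay between -0.060 and 0.079. Over mitochondrial genes treated WT animals had 0.20, 0.19, 0.087, 0.11 and 0.24 (mean 0.17 ± 0.067 SD, n = 5), all above the 5 vehicle animals. Treated PXR-KO animals had -0.14, -0.075, 0.014, -0.098 and -0.059 (-0.071 ± 0.056), of which 4 lay below all vehicle animals and replicate 3 lay among them. Over cytosolic genes treated WT animals had 0.11, 0.14, 0.062, 0.085 and 0.16 (0.11 ± 0.040), all above the vehicle animals, and treated PXR-KO animals 0.19, 0.11, 0.007, 0.087 and 0.024 (0.083 ± 0.071), which overlapped with them. The mitochondrial minus the cytosolic median was 0.020 to 0.091 in treated WT and -0.32 to 0.006 in treated PXR-KO animals. The mitochondrial median was thus the higher of the pair in all treated WT animals, and the lower in 4 of 5 treated PXR-KO animals. Under vehicle the same subtraction gave -0.037 to 0.024 in WT and -0.038 to 0.079 in PXR-KO animals. The sign alone does not separate treated from vehicle animals. The mitochondrial median was also the lower in all PXR-KO vehicle animals but replicate 1. It was the higher in WT vehicle replicates 2, 3 and 4, and treated WT replicate 4 (0.020) lay within the WT vehicle range.

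**Figure D4:**
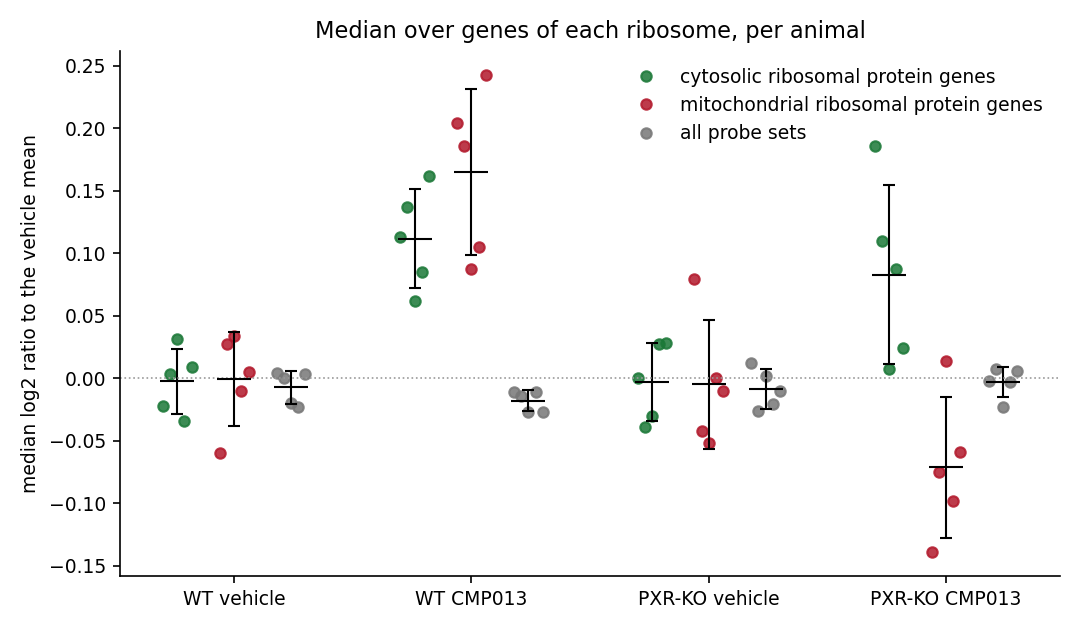
Median log2 ratio to the vehicle mean over the 47 cytosolic genes, the 76 mitochondrial genes and all 45037 probe sets, 1 point per animal and 5 animals per group; black bars are the mean and the SD over animals. The mitochondrial median is above 0.08 in all treated WT animals and below 0 in 4 of 5 treated PXR-KO animals, and the cytosolic median is above 0 in all 10 treated animals.

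Genes of the same ribosomes were also taken from a written list. All were outside the symbol rule except Mrpl58, 1 of the 5 mitochondrial ones below, which is already counted as a member. Of 4 cytosolic ones measured, Rplp2 of the acidic stalk rose in WT livers (0.30, adjusted p = 0.0218, limma) and none was called in PXR-KO livers. Of 5 mitochondrial ones Ptcd3, a pentatricopeptide protein of the small subunit, rose by 0.33 in WT livers (adjusted p = 0.0114), gave -0.18 in PXR-KO livers (adjusted p = 0.29) and had a difference of 0.51 (adjusted p = 0.00237).

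The counts of the gene lists below are to be read beside all genes, of which 9.72% rose and 7.98% fell in WT livers. In PXR-KO livers 2.5% rose and 2.14% fell, and 13.6% differed between the genotypes. At an unadjusted p under 0.05, 13.8% of probe sets were higher and 13.7% lower in WT livers, and 10.8% and 9.25% in PXR-KO livers. A few calls in a short list are therefore not by themselves a response of that list. Mitochondrial translation needs further factors. Of 13 such genes measured, Slirp, an RNA-binding protein that stabilises mitochondrial mRNAs, and Gfm1, elongation factor G1, rose in WT livers (0.90 and 0.81, adjusted p = 0.000126 and 0.00263, limma) and gave 0.11 and -0.08 in PXR-KO livers. The responses differed at 5: Slirp, Gfm1, Tufm, Tsfm and Mtif3, all higher in WT livers, with differences of 0.47 (Tsfm) to 0.90 (Gfm1). The median log2 fold change of the list was 0.14 in WT and -0.13 in PXR-KO livers. Of 22 genes for assembly of the mitochondrial ribosome and modification of its rRNA, 0 rose and 1 fell in WT livers (Eral1, -0.50, adjusted p = 0.00155), with 5 higher and 2 lower at an unadjusted p under 0.05, and the list's median was 0.050. Of 14 genes for mitochondrial transcription and its regulators, Tfb2m rose (0.29, adjusted p = 0.0448) and 4 fell in WT livers: Ppargc1a (-2.24, adjusted p = 0.0129) and Ppargc1b (-0.71, adjusted p = 0.0393), the coactivators known to induce mitochondrial genes, Nrf1 (-0.62, adjusted p = 0.0139), a transcription factor of these genes, and the deacetylase Sirt3 (-0.90, adjusted p = 9.39e-05). Ppargc1a, Nrf1 and Sirt3 also differed between the genotypes, and Ppargc1b did not (-1.13 in the knockout, adjusted p = 0.125; difference 0.42, adjusted p = 0.594).

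For the cytosolic ribosome, 10 of 49 nucleolar biogenesis genes rose and 1 fell in WT livers, led by Nhp2 (0.88, adjusted p = 0.00108) and Rrp15 (1.08, adjusted p = 0.00115, limma), and 4 rose in PXR-KO livers (Ncl, Nop58, Eif6 and Gar1). At an unadjusted p under 0.05 the list had 17 genes higher and 4 lower in WT livers, and 25 higher and 2 lower in PXR-KO livers. The responses differed at 7 genes, 3 higher and 4 lower in WT livers (5 and 12 unadjusted). The list medians were 0.13 and 0.25. Of 16 genes of RNA polymerase I transcription Polr1b (0.63) and Myc (1.68) rose and Ttf1 (-0.57) fell in WT livers, and Myc also rose in PXR-KO livers (0.79, adjusted p = 0.00841). Of 27 genes of translation initiation 8 rose and 2 fell in WT livers, and 0 passed in PXR-KO livers (6 higher and 2 lower at an unadjusted p under 0.05). Those that rose included Eif4e, the cap-binding protein (0.46, adjusted p = 0.00323, limma). They also included Eif4ebp1, a protein that binds Eif4e and is not itself an initiation factor. Eif4ebp2, another such binding protein, and Eif4a2 fell. A list of 17 genes held elongation factors, the kinase Eef2k and genes of other TOP mRNAs. None of them rose and Eif4b (-0.38) and Hnrnpa1 (-0.59) fell in WT livers. None was called in PXR-KO livers, where 3 were higher and 0 lower at an unadjusted p under 0.05. Of 14 mTORC1 genes Rptor (0.84), Akt1s1 (0.57) and Sesn2 (0.85) rose and Tsc1 (-0.68) fell in WT livers, and Sesn3 fell in PXR-KO livers (-0.73).

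Other cell types and states moved in the same groups. Of 13 proliferation markers 9 rose in WT livers, with a median log2 fold change of 1.30, against 0 higher and 1 lower (Ccna2) in PXR-KO livers, and 8 differed between the genotypes. The animal medians of these markers were 0.71 to 1.59 in treated WT, -0.36 to 0.12 in WT vehicle, -0.36 to 0.073 in PXR-KO vehicle and -0.39 to 0.043 in treated PXR-KO animals. Of 10 endothelial markers 6 fell in WT livers (animal medians -0.40 to -0.34 in treated animals), and 1 rose and 1 fell in PXR-KO livers (-0.30 to -0.080). Of 12 macrophage markers 3 fell in WT livers (-0.51 to -0.061 in treated animals) and 2, Cd68 and Marco, rose in PXR-KO livers (0.11 to 0.40, against -0.37 to 0.53 under vehicle). Of 7 neutrophil markers 2 rose in WT livers (-0.10 to 0.46) and 1 in PXR-KO livers (-0.070 to 1.22), of 9 stellate markers 2 fell in WT livers (-0.52 to 0.12), and of 10 hepatocyte markers 2 fell in WT livers (-0.17 to -0.039) and none was called in PXR-KO livers. Of 11 lymphocyte markers none was called in WT livers (limma; 0 higher and 4 lower at an unadjusted p under 0.05), and the animal medians were -0.349 to -0.202 in treated and -0.198 to 0.192 in vehicle animals. Of 4 erythroid markers Hba-a1 rose and Alas2 fell in WT livers (-0.32 to 0.19 in treated animals), and Alas2 fell in PXR-KO livers (-0.30 to -0.21, against -0.17 to 0.12 under vehicle). None of 6 cholangiocyte markers was called in either genotype (limma; 0 at an unadjusted p under 0.05). The part of these cells and states in the ribosomal protein results was not tested.

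Motif counts were set beside the calls, with no test. Of the 17 risen genes with a window 7 held at least 1 of CCGGAAGT, AAGATGGC, GCATGCGC and CACGTG, and so did 24 of the 50 that did not rise. CCGGAAGT was in 3 of 17 and 9 of 50, AAGATGGC in 3 and 9, and GCATGCGC in 1 and 7. Among the 3 cytosolic genes that rose, Rpl35 and Rpl38 hold the TOP form, and the other 5 genes with it, Rpl14, Rps6, Rps10, Rps18 and Rps27, were not called in WT livers.

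Of the 24 mitochondrial genes called in WT livers 17 kept the call in every fit without 1 animal. The count was 12 without the 4 vehicle animals of highest score on the second component and 5 with quantile normalization of the ratios. There 7.35% and 3.89% of all probe sets were called, and the median was 0.18 and 0.13.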

How the data were processed

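The authors hybridized 1 Affymetrix Mouse430_2 array per animal and deposited log10 ratios made in Rosetta Resolver 7.2, each animal against the mean of the 5 vehicle animals of its genotype. Per the labels, 20 arrays fall into 4 groups. Ratios were converted to log2, their normalization was kept, and no filter on dim signals could be set, since intensities, depth over background and platform p-values were not used here. The number of arrays limits the precision. Replicates are separate animals.

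Genes were named through the platform annotation (34945 probe sets with 1 symbol, 932 with several, 9160 with none), and all 123 members matched RefSeq genes. A gene was measured by its probe set without an s or x mark first, then by that with the smallest SD within the vehicle groups. Differences were tested with limma 3.58.1 (lmFit, eBayes) in R 4.3.3 on 10 arrays per genotype, and the difference of the responses on 20, adjusted by Benjamini-Hochberg over 45037 probe sets at 0.05, and the fit was tested on simulated data. Named genes are, per ribosome and comparison, up to 4 called genes of smallest adjusted p in each direction, the highest and lowest fold change, paralogue pairs, and members known for roles outside translation. Mrpl11, Rpl14, Rps10, Rps18, the other called genes, Mrpl22, Mrpl36, Mrpl37 and Mrps11 were named after their values were seen. The members, lists and rules were chosen with earlier results of these data known. Alternatives were array weights, centring, quantile normalization, the replicate number as a block, trend and robust variances, 1 fit over all groups, a 1.25-fold limit, other ways to choose or average probe sets, 4 vehicle animals left out, and each animal left out. Promoter windows came from RefSeq tables of GRCm38.p6 and held 41 cytosolic and 67 mitochondrial members. Protein sequences were not used here, and 1 start-site sequence is not reported here. Figures were drawn with matplotlib 3.10.9 in Python 3.11.15 with pandas 2.3.3 and numpy 2.4.6.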

Additional observations from a re-analysis of the deposited data

Results flagged for a closer look

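For the named genes and the animal medians of both ribosomes, 156 groups of 5 animals were examined for an animal far from the other 4, and 4 were found, where chance gives about 1 in 20. They were Rpl22 in WT vehicle replicate 5 (0.16), Rpl39 in PXR-KO CMP013 replicate 3 (0.41), Rpl39l in WT CMP013 replicate 3 (0.57) and Rps6 in PXR-KO vehicle replicate 2 (-0.27). None of these genes was called in any comparison.

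The response to CMP013 differed between the genotypes, by the test of the difference itself on 20 arrays (limma), at 11 named genes. Most of these genes were named for a small adjusted p or an extreme value, in this test or in another comparison. The count of 11 was therefore largely fixed by the naming and is not a rate among the members. Among all genes, 13.6% differed in either direction. The response in WT minus that in PXR-KO livers was 0.83 for Mrpl10, 0.62 for Mrpl16, 0.61 for Mrps22, 0.59 for Mrpl57, 0.53 for Mrpl42, 0.46 for Mrps18a, 0.42 for Mrpl54, 0.38 for Mrps18c and 0.35 for Mrpl44. It was -0.83 for Rpl41 and -0.90 for Rps9, genes whose other probe sets did not show the same difference. The limit is not theirs alone: the difference at Mrpl44 also depended on the probe set. In the 20 fits without 1 animal it was lost in 15, and that at Mrpl54 in 14. Of 26 other probe sets of the 23 mitochondrial genes with a difference, 16 were above 0, 4 were called higher and 1 lower.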

How the results depend on the processing

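With quantile normalization the calls were 5 mitochondrial and 0 cytosolic genes in WT livers (limma). They were 0 and 0 in PXR-KO livers and 6 and 0 for the difference. The shares of all probe sets called were 3.89%, 1.11% and 2.73%. At an unadjusted p under 0.05 the member counts were 24 and 5, 8 and 3, and 27 and 3. Without the 4 vehicle animals of highest score on the second component, 7.35%, 0.806% and 5.65% of all probe sets were called. The member calls were 12 and 1, 0 and 0, and 12 and 0 (27 and 8, 9 and 3, and 31 and 5 unadjusted). With the replicate number as a block they were 5 and 1, 0 and 0, and 15 and 1 (30 and 10, 6 and 4, and 35 and 6 unadjusted). The shares of all probe sets were then 6.72%, 0.264% and 8.86%, so that the 5 of 76 in WT livers were near the background. Deviations of same-numbered animals had correlations of -0.242 to 0.065 over all probe sets. The labels name no pairing by these numbers, but such correlations cannot exclude a shared handling of same-numbered animals. With all 4 groups in one fit, cytosolic calls were 7 in WT and 3 in PXR-KO livers, beside 17.6% and 6.77% of probe sets. Mitochondrial calls were 6 in PXR-KO livers, 5 of them lower, so that the 6 of 76 were near the 6.77%. Array weights gave 2 and 2 in PXR-KO livers and 4 cytosolic differences, beside 4.91% and 12% of all probe sets. Trend and robust variances gave 0 and 0 in PXR-KO livers (13 and 7 unadjusted), where no probe set passed. Averaged probe sets gave 2 cytosolic calls in PXR-KO livers and 1 cytosolic difference, beside 5.63% and 13.8% of all genes. The 1 difference was higher in WT livers, with 0 of the 2 main calls (Rps9 and Rpl41, both lower) kept. For mitochondrial genes, averaged probe sets gave 22 calls in WT livers (20 higher and 2 lower), beside 18.2% of all genes. Of the 24 main calls 17 were kept, and the WT median was 0.13. Mitochondrial differences were 17, all higher in WT livers, with 13 of the 23 main calls kept. The causes were not tested.

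Without each animal in turn, mitochondrial calls were 17 to 22 in WT livers, 0 to 0 in PXR-KO livers and 16 to 23 for the difference, and cytosolic calls 2 to 3, 0 to 3 and 1 to 3. The 3 in PXR-KO livers came without PXR-KO CMP013 replicate 3, the 3 differences without PXR-KO vehicle replicate 2, and the 2 in WT livers without WT vehicle replicate 4 or WT CMP013 replicate 1 or 2. Calls kept in every such fit were 17 of 24, 0 of 1 and 15 of 23 for mitochondrial genes and 2 of 4, 0 of 1 and 1 of 2 for cytosolic genes. The medians were 0.16 to 0.20 and -0.091 to -0.038 for mitochondrial genes and 0.10 to 0.13 and 0.060 to 0.094 for cytosolic genes, in WT and PXR-KO livers. Under the other settings the medians moved by less than 1 SD between animals. Among 258 alternatives of the called named genes 199 kept the call and none changed direction. These include the fold limit and the removal of members with an s or x mark, which only filter the main fit. Under them the direction could not change, so they test neither the direction nor the fit. Many of these genes were also named for a small adjusted p, so the share kept does not describe the other members. With no level in the table, signal over background limits each value to an unknown degree.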
